A study of Homo sapiens with 18 samples.

Results

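Replication-dependent histone genes encode the core histones H2A, H2B, H3 and H4 and the linker histones H1 that a cell makes in bulk while it copies its DNA. They were taken here as every protein-coding gene whose symbol is H1-1 to H1-6 or carries the prefix H2AC, H2BC, H3C or H4C, which gave 69 of the 62703 genes in the files. The members comprised 6 H1, 17 H2A, 18 H2B, 13 H3 and 15 H4 genes. Of these, 55 lie in the large cluster on chromosome 6, 11 in the cluster at 1q21, 2 at 1q42 and 1 (H4C16) on chromosome 12. Poly(A)-selected RNA was sequenced from MDA-MB-231, a triple-negative breast cancer cell line with a mesenchymal-like profile, in 5 groups of 2 libraries. Cells of the Control shRNA, shEZH2 and shE2F1 groups were infected with lentivirus for 24 h and kept in puromycin at 2 μg/ml for 72 h, so the control cells carried a hairpin and had been selected as well. Cells of the DMSO and GSK126 groups were not infected and received the solvent or 1 μM GSK126 for 72 h. EZH2 is the enzyme of Polycomb repressive complex 2 that methylates lysine 27 of histone H3, GSK126 blocks that activity, and the transcription factor E2F1 acts at the G1/S transition.

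Most messenger RNAs end in a poly(A) tail, but the replication-dependent histone messengers usually do not. Their 3′ end is a stem-loop that SLBP binds, and the U7 ribonucleoprotein with its LSM10 and LSM11 subunits and the protein ZNF473 directs the cut just behind it. NPAT, a substrate of cyclin E and CDK2, drives their transcription at S phase from histone locus bodies, which also need CASP8AP2. Part of the genes can also be cut further downstream at a conventional polyadenylation signal, and such transcripts accumulate in cells that leave the cycle or differentiate. Oligo(dT) selection therefore recovers tailed forms and whatever untailed RNA is carried over, and values below are levels in that selected RNA, not total histone mRNA.

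The stem-loop of the members the results turn on is shown first, since it is the element that sets these genes apart from other messengers. Each line gives 26 bases of the RNA-sense strand as DNA letters, read from the GRCh38 genome, with the 16 bases of the stem-loop in capitals at the position stated.
H1-2 at chr6:26055744-26055759, minus strand: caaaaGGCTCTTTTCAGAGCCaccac
H2AC18 at chr1:149842223-149842238, minus strand: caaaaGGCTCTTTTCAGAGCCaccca
H2AC20 at chr1:149887391-149887406, plus strand: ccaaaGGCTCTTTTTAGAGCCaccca
H2BC21 at chr1:149886188-149886203, minus strand: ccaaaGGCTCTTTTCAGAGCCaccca
H2BC4 at chr6:26123472-26123487, minus strand: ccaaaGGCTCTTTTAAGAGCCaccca
H2BC11 at chr6:27132321-27132336, minus strand: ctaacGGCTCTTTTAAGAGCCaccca
H2BC12 at chr6:27146366-27146381, minus strand: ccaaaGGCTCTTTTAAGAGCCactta
H3C10 at chr6:27810516-27810531, plus strand: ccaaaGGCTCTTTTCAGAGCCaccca
H4C8 at chr6:26285131-26285146, minus strand: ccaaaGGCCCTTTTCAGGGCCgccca
H4C15 at chr1:149860769-149860784, minus strand: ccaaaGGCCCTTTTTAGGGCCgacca
The motif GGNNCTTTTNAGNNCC was searched on the gene's own strand in the 300 bases behind each annotated stop codon. It was found in 66 of the 69 members (95.7%) and in 5 of 19851 other protein-coding genes (0.0252%), namely H2AX, H3-4, H3-7, TIPARP and ZNF544. The 3 members without it were H2BC10, H3C6 and H4C13. In the others it began 23 to 68 bases behind the stop codon, with a median of 36.5. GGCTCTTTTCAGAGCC was the commonest form with 40 genes, and H4C8 and H4C15 carried GC-richer forms of it, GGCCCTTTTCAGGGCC (10 genes) and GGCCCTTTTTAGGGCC (4 genes).

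Many members are arranged head to head, an H2A gene and an H2B gene starting on opposite strands from 1 short shared promoter. The sequence between the starts is shown for the 4 pairs in which both partners had enough reads to be compared further on, on the forward strand of GRCh38. Capitals mark matches to ATTTGCAT, the octamer bound by POU2F1, to the CCAAT box, to the promoter element TATAAA and to TTTNNCGC, an E2F site. Each was searched in either direction, and overlapping matches run together.
H2BC21 and H2AC20, chr1:149886683-149886917: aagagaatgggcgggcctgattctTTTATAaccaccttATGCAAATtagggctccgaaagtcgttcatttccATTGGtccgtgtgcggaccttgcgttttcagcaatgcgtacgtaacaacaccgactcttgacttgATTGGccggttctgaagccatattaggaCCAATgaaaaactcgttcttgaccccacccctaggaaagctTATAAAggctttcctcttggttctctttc
H2BC4 and H2AC6, chr6:26123927-26124144: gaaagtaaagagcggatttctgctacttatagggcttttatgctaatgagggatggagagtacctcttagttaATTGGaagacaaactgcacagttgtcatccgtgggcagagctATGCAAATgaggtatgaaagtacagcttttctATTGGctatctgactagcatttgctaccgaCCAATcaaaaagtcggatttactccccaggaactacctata
H2BC11 and H2AC11, chr6:27132796-27133042: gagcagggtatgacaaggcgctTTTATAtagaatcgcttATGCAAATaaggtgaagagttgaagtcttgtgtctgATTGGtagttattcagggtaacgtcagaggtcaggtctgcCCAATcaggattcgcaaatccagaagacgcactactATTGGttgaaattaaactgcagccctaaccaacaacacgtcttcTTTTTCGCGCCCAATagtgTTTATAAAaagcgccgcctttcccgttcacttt
H2AC17 and H2BC17, chr6:27893186-27893424: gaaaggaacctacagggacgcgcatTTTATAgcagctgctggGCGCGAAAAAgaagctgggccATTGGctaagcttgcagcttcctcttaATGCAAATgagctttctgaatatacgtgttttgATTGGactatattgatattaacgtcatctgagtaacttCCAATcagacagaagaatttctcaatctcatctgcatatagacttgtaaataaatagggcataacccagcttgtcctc
All 4 intervals hold 1 octamer and at least 3 CCAAT boxes. The H2BC11 and H2AC11 and the H2AC17 and H2BC17 intervals each hold 1 stretch in which the E2F site matched at 2 overlapping positions. In the RefSeq promoter windows of GRCh38.p14 (250 bases before to 50 after a start, 64 members matched), the octamer occurred in 14 of 18 H2B, 11 of 16 H2A, 1 of 11 H3 and no H1 or H4 promoters, or 40.6% of members against 1.71% of the 27241 other promoters. CCAAT was found in 84.4% of members and 35.6% of other promoters, TATAAA in 65.6% and 11.8%, and the E2F site in 31.2% and 6.84%. These matches describe the letters of the windows only.

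Totals ran from 13198932 to 20055550 counts per library. EZH2, the target of the first hairpin, was at 155 and 183 CPM (counts scaled to library size) in the Control shRNA libraries and 53.1 and 44.8 in the shEZH2 libraries, a fall of log2 -1.79 (edgeR adjusted p = 2.4e-06). E2F1 was at 145 and 140 CPM in Control and at 26.2 and 22.7 in the shE2F1 libraries, a fall of log2 -2.54 (adjusted p = 1.52e-05). E2F1 was also low in the shEZH2 libraries, at 63.0 and 32.3 CPM. Of the markers of the line, VIM, CD44, AXL, CAV1 and MSN were at 169 TPM (a level scaled to transcript length and library size) or more in every library and SPARC stayed between 0.38 and 4.26 TPM. Of the 9 luminal genes looked at, ESR1, PGR and FOXA1 were at 0.24 TPM or less and CDH1 at 4.50 or less, while ERBB2, GATA3 and EPCAM lay between 5.86 and 37.7 and the keratins KRT8 and KRT18 at 922 or more.

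Of the 69 members, 29 passed the filter on low counts in at least 1 experiment, 28 in the knockdown libraries and 24 in the drug libraries. They were 2 H1, 7 H2A, 9 H2B, 4 H3 and 7 H4 genes. A few members held nearly all of the signal, since H2BC12, H1-2, H2AC18, H2AC6, H2BC5 and H2BC4 together made up 83.5 to 91.1% of the members' summed TPM in each library. H2BC12 led with a mean of 842 TPM over the 10 libraries, followed by the linker histone gene H1-2 with 385, H2AC18 with 205, H2AC6 with 111, H2BC5 with 83.5 and H2BC4 with 69.2. By class, H2B genes gave 53.7 to 59.4% of the summed TPM, H1 17.2 to 25.1%, H2A 14.1 to 22.4%, H4 2.49 to 5.53% and H3 0.63 to 1.83%. The core histones are needed in equal numbers in a nucleosome, and their levels in this selected RNA were far from equal.

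Summed over all members, the level was 1791 and 1542 TPM in the Control shRNA libraries, 3901 and 4380 in the shEZH2 libraries, and 2007 and 1825 in the shE2F1 libraries. The shEZH2 libraries stood above all others, and the shE2F1 libraries lay just above the Control libraries. The shEZH2 level was 2.48 ± 0.332 times that of Control (ratio of means, propagated SD, n = 2 and 2), while the shE2F1 level was 1.15 times. The H2A sum was 275 and 218 TPM in Control and 875 and 949 in shEZH2, a ratio of 3.70. The H2B sum went from 1050 and 889 to 2103 and 2528 TPM and the H1 sum from 359 and 336 to 801 and 755, ratios of 2.39 and 2.24. The H3 sum was small, 17.8 and 13.6 TPM in Control and 24.7 and 33.4 in shEZH2. The H4 sum differed with the scale. Its TPM ratio was 1.21 ± 0.145 for shEZH2 and 0.817 for shE2F1, whereas summed CPM, which takes no account of transcript length, gave 2.15 and 1.32. The uninfected cells had lower sums over all members, with 931 and 985 TPM in DMSO and 796 and 915 in GSK126, a ratio of 0.893. The median gap between length and effective length, which follows fragment size and enters TPM most for short genes, was 205 and 204 bases in DMSO and GSK126 replicate 1 and 163 to 179 in the other libraries. Sums are descriptions with no test, and in bulk RNA fewer cells expressing a gene and less RNA per cell cannot be told apart.

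**Figure D1:**
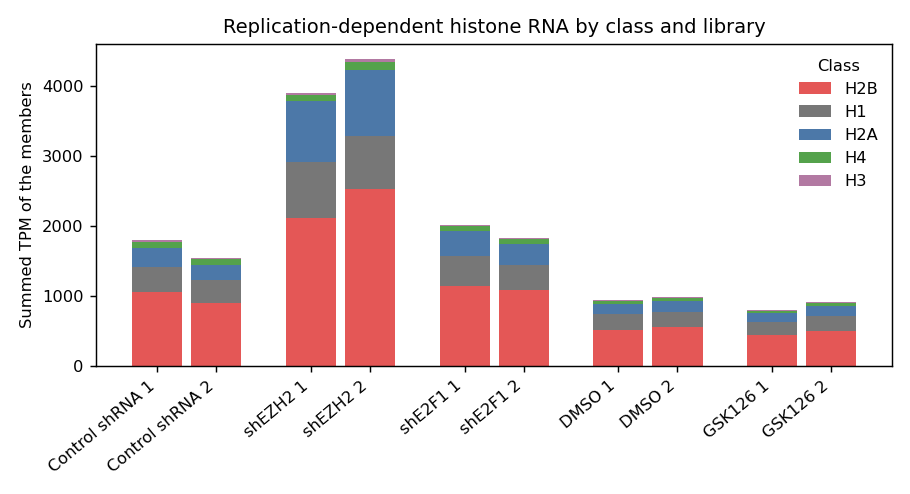
Summed TPM of the replication-dependent histone genes (y axis) in each of the 10 libraries (x axis), as bars stacked by class. The shEZH2 bars of 3901 and 4380 TPM stand above all others, and H2B genes give the largest piece of every bar.

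With shEZH2, the histone genes moved mostly upwards. Of 28 members tested against Control shRNA, 10 rose and 1 fell by more than 2-fold at an edgeR adjusted p under 0.01. Over all 15373 genes, 18.2% were called, 7.52% higher and 10.7% lower. The median log2 change of the members tested was 1.17, beside -0.02 for all genes. Members near the filter on low counts can enter through the group where they are high. H2AC11 and H3C2 entered through the shEZH2 libraries and H2AC20 through the Control libraries. Without the filter the median was 0.91 over 48 members. The CPM of the libraries did not overlap between the groups for 23 of 28 members, against 77.4% of all genes, which is near that background. The genes that rose were 5 of 9 H2B, 2 of 7 H2A, 2 of 6 H4 and 1 of 4 H3 members, and neither H1 member was called. By location, 7 of 19 members tested on chromosome 6 rose, and 3 rose and 1 fell of 8 at 1q21.

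H2BC21, an H2B gene of the 1q21 cluster, was at 4.43 and 3.49 TPM in Control and at 36.2 and 46.7 in shEZH2. H2BC4, of the chromosome 6 cluster, was at 23.6 and 26.8 TPM in Control and at 213 and 260 in shEZH2. H2BC11 was at 18.3 and 19.7 TPM in Control and at 123 and 166 in shEZH2. For all 3 genes both shEZH2 libraries stood far above both Control libraries. Their log2 changes were 3.19 ± 0.18 (SE) for H2BC21 (edgeR adjusted p = 8.55e-07), 3.08 ± 0.17 for H2BC4 (8e-07) and 2.62 ± 0.18 for H2BC11 (2.51e-06), with 2 libraries a group here and below. H2BC15 was at 2.75 and 2.68 TPM in Control and at 9.56 and 10.8 in shEZH2, and H2BC17 at 4.73 and 3.23 against 15.9 and 12.9. These 2 are minor H2B genes at the high-coordinate end of the chromosome 6 cluster, and their groups were apart as well. The log2 changes were 2.29 ± 0.26 for H2BC15 (adjusted p = 3.95e-05) and 1.66 ± 0.36 for H2BC17 (0.00277), and H2BC17 was not called with DESeq2 or without shEZH2 replicate 1 or Control replicate 2.

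**Figure D2:**
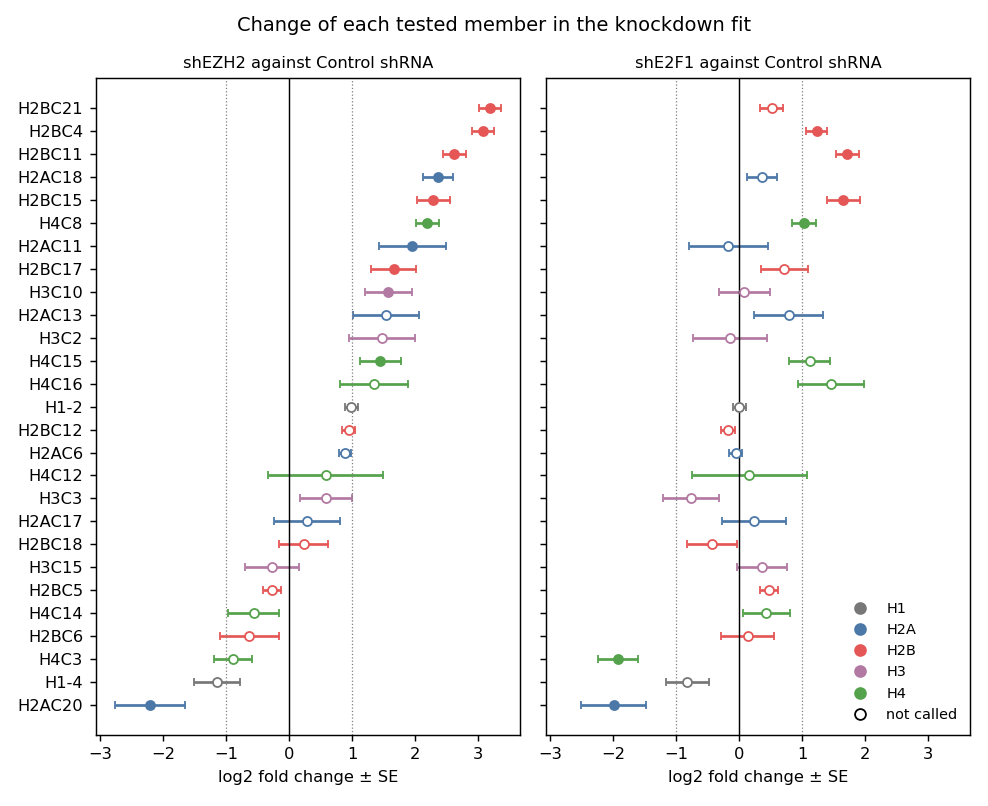
Log2 fold change with its SE (x axis) of the histone genes tested (y axis), shEZH2 and shE2F1 each against Control shRNA, coloured by class, with open points for genes not called and dotted lines at 2-fold. H2BC21, H2BC4 and H2BC11 reach 3.19, 3.08 and 2.62 with shEZH2 and H2AC20 lies at -2.20. H2AC19 is not drawn, since it was at 0 in several libraries, and H4C11 was not tested in the knockdown libraries.

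Among the H2A genes, H2AC18 of the 1q21 cluster was at 121 and 98.4 TPM in Control and at 658 and 624 in shEZH2, a log2 change of 2.36 ± 0.24 (edgeR adjusted p = 2.01e-05). Its twin H2AC19 has nearly the same sequence, and reads were divided between them by estimate, with a posterior SD of up to 560 counts, so H2AC19 was listed at 65.8 TPM in shEZH2 replicate 2 and at 0 in the other 3 libraries. The sum of the pair does not depend on that division. It was 30.4 and 27.0 CPM in Control and 150 and 162 in shEZH2, a log2 change of 2.44 ± 0.14 (adjusted p = 8.2e-07). H2AC11 was at 1.21 and 2.97 TPM in Control and at 7.12 and 11.3 in shEZH2 (1.96 ± 0.54, edgeR adjusted p = 0.0096). This rise rests on few reads and was not called without shEZH2 replicate 1, shEZH2 replicate 2 or Control replicate 1. H2AC11 passed the filter only through the shEZH2 libraries, where it is high, so the call is not independent of the filter.

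H4C8 was the H4 gene with the clearest rise, from 13.2 and 10.1 TPM in Control to 44.1 and 45.9 in shEZH2 (2.20 ± 0.19, edgeR adjusted p = 6.98e-06). H4C15 was at 9.56 and 5.72 TPM in Control and at 13.7 and 15.5 in shEZH2 (1.45 ± 0.33, adjusted p = 0.00329). Here too a near-identical copy, H4C14, shares the reads, and the sum of the pair, 7.85 and 7.95 CPM in Control and 11.5 and 15.9 in shEZH2, did not overlap between the groups but was not called (0.80 ± 0.19, adjusted p = 0.00426). H3C10 was at 5.31 and 2.06 TPM in Control and at 6.39 and 8.48 in shEZH2, groups that lie close together on this scale (1.58 ± 0.38 from counts, adjusted p = 0.00454). With counts corrected for the effective length given for each library, the changes of H3C10 and H4C15 were 0.84 and 0.74 and neither was called. Without shEZH2 replicate 2 or Control replicate 2, both also lost the call, and H4C15 without Control replicate 1 too.

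Of the 6 most abundant members, H2AC18 and H2BC4 were called, and H2BC12, H1-2 and H2AC6 fell just short of 2-fold. H1-2 was at 352 and 331 TPM in Control and at 797 and 750 in shEZH2, a log2 difference of 0.99 ± 0.11 (edgeR adjusted p = 2.72e-05). H2BC12 was at 877 and 752 TPM in Control and at 1617 and 1936 in shEZH2 (0.95 ± 0.11, adjusted p = 4.14e-05), and H2AC6 at 137 and 105 against 193 and 231 (0.89 ± 0.10, adjusted p = 3.33e-05). Both shEZH2 libraries exceeded both Control libraries for all 3. With a correction for GC content and length, H1-2 and H2BC12 passed at 1.38 and 1.32 while H2AC6 stayed below at 0.94.

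H2AC20 was the member that fell with shEZH2. It was at 6.43 and 4.22 TPM in Control, from 26.7 and 17.1 expected counts, and at 1.95 and 0.87 in shEZH2, from 5.21 and 3.15 (log2 change -2.20 ± 0.56, edgeR adjusted p = 0.0064). The call rests on these few reads, and it was lost without any 1 of the 4 libraries. It was also lost in 5 of 10 alternatives, among them DESeq2 and the GC and length correction. In the knockdown libraries H2AC20 passed the filter only through Control, where it is high, so the call is not independent of the filter. H2BC5, the fifth most abundant member, was at 107 and 74.1 TPM in Control and at 77.0 and 82.3 in shEZH2, groups that overlap (-0.27, adjusted p = 0.14). H4C3, the H4 gene with the highest level in Control, was at 35.4 and 46.9 TPM in Control and at 21.5 and 28.7 in shEZH2 (-0.88, adjusted p = 0.028), and H1-4 had a log2 difference of -1.15 (adjusted p = 0.021). The leading H3 gene, H3C3, was at 4.44 and 4.30 TPM in Control and at 6.89 and 7.90 in shEZH2 (0.58, not called). Other members not called were H2AC13 at 1.54, H3C2 at 1.48, H4C16 at 1.35, H2AC17 at 0.29 and H2BC18 at 0.23. H3C15 at -0.27, H4C14 at -0.56 and H2BC6 at -0.63 were not called either. Nor were H2AC19 and H4C12, which were at 0 in some libraries because reads were divided with a near-identical copy. H4C11 passed the filter in the drug libraries but not in the knockdown libraries, so it was not tested here. Summed, H4C11 and H4C12 gave 2.69 and 1.76 CPM in Control and 1.29 and 1.27 in shEZH2, with a log2 difference of -0.80 (adjusted p = 0.0998).

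**Figure D3:**
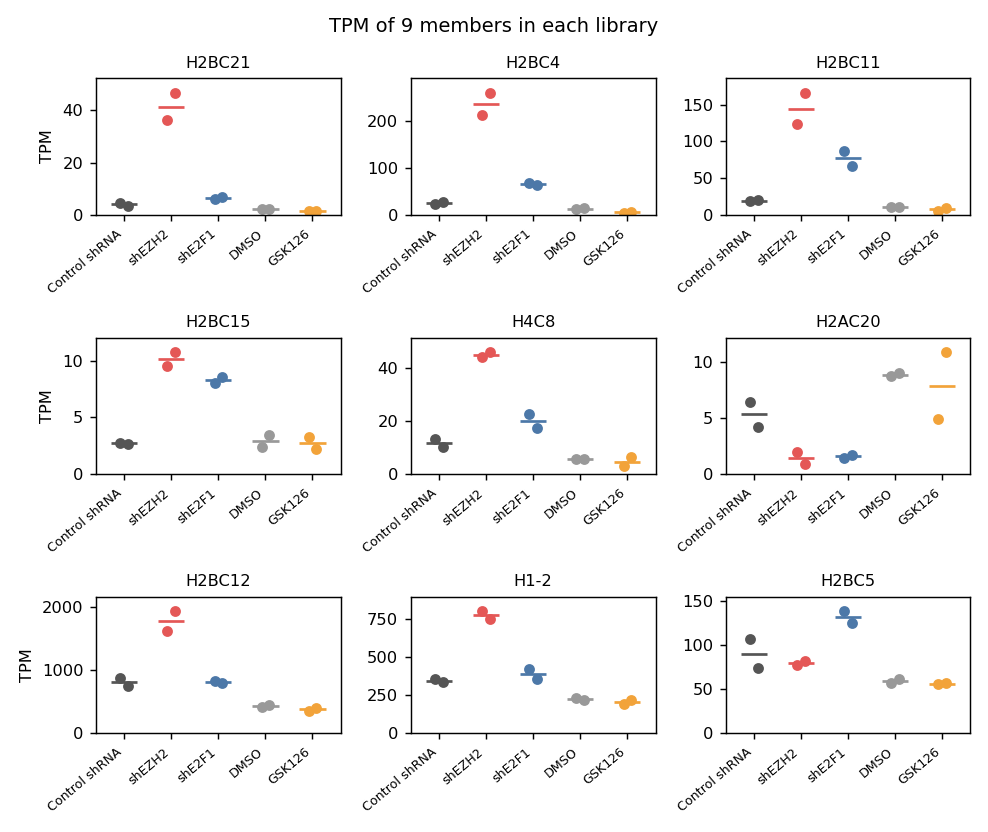
TPM (y axis, from 0, a scale for each gene) of 9 histone genes by group (x axis), with a point for each library and a line at the mean of 2. H2BC21, H2BC4, H2BC11, H2BC15, H4C8, H2BC12 and H1-2 are highest in the shEZH2 libraries, H2AC20 is lowest in the knockdowns, and H2BC5 overlaps between Control and shEZH2.

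Partners that share a promoter are set side by side here. In the shEZH2 comparison H2BC21 rose by 3.19 while H2AC20, whose start lies 236 bases away, had a log2 change of -2.20. The H2AC20 call rests on few reads and was lost in 5 of 10 alternatives. H2BC4 rose by 3.08 and its partner H2AC6, 219 bases away, differed by 0.89, short of the call. H2BC11 and H2AC11 both rose, by 2.62 and 1.96. Of H2BC17 and H2AC17 the H2B gene rose by 1.66 and the H2A gene differed by 0.29. The partners of H2BC15 and H2BC12, H2AC15 and H2AC12, had too few reads to be tested. The difference between partners was itself not tested.

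With shE2F1, 6 of 28 members were called against Control shRNA, 4 higher and 2 lower. Over all 15373 genes 11.6% were called, 5.60% higher and 5.96% lower. The median log2 change of the members was 0.30, beside -0.00 for all genes, and the libraries did not overlap for 16 of 28 members against 74.2% of all genes. This comparison uses the same Control libraries as the shEZH2 comparison, so the changes of the 2 are not independent. Of the calls, 4 higher and 1 lower were among 19 members on chromosome 6 and 1 lower among 8 at 1q21.

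H2BC11 was at 18.3 and 19.7 TPM in Control and at 87.1 and 66.6 in shE2F1, a log2 change of 1.71 ± 0.18 (edgeR adjusted p = 3.8e-05). H2BC15 reached 8.03 and 8.58 TPM in shE2F1 (1.65 ± 0.26, adjusted p = 0.000544), and H2BC4 reached 67.8 and 63.8 (1.23 ± 0.17, adjusted p = 0.000218). For these 3 H2B genes both shE2F1 libraries stood above both Control libraries and below both shEZH2 libraries. H4C8 was at 22.4 and 17.3 TPM in shE2F1, close above its Control values (1.03 ± 0.19, edgeR adjusted p = 0.00134). It was no longer called with the GC and length correction (0.98), with the replicate block added, or with the effective length offset. Its lowest value under an alternative was 0.58. The H4C8 call was also lost without shE2F1 replicate 1 or Control replicate 1.

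H4C3 fell with shE2F1, from 35.4 and 46.9 TPM to 14.8 and 9.45 (-1.92 ± 0.32, edgeR adjusted p = 0.000667), a call that was lost without shE2F1 replicate 2. H2AC20 was at 1.43 and 1.68 TPM in shE2F1, from 6.22 and 6.32 expected counts (-1.997 ± 0.52, edgeR adjusted p = 0.00941). This call was again lost without any 1 of the 4 libraries and in 5 of 10 alternatives, DESeq2 among them. H2AC20 passed the filter only through the Control libraries. Both genes were lower than Control in both knockdowns. H2BC21, with the largest rise under shEZH2, was at 6.16 and 6.88 TPM in shE2F1 (0.51, adjusted p = 0.045, not called). H1-2 at 422 and 355 TPM (0.00), H2BC12 at 821 and 799 (-0.18) and H2AC6 at 122 and 123 (-0.06) lay at or close to their Control levels, and H2BC5 was at 139 and 126 TPM (0.47, adjusted p = 0.0188). H3C3 was at 3.54 and 2.18 TPM (-0.77), and the summed H4C11 and H4C12 pair differed by -1.23 (adjusted p = 0.0248). H2AC18 gave 209 and 107 TPM, and the summed H2AC18 and H2AC19 pair differed by 0.59 (adjusted p = 0.00512), short of 2-fold.

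Set directly against shE2F1, shEZH2 gave higher levels of 7 of 28 members and lower levels of none. Over all genes 23.3% were called, 10.4% higher and 12.9% lower, and the members' median was 0.84 beside -0.02. H2BC21 differed most, with a log2 difference of 2.68 ± 0.17 (edgeR adjusted p = 5.47e-07), followed by H2AC11 at 2.14 ± 0.53 (0.00538), H2AC18 at 2.00 ± 0.23 (3.26e-05) and H2BC4 at 1.85 ± 0.15 (2.85e-06). H3C10 at 1.4995 ± 0.37 (adjusted p = 0.00496), H4C8 at 1.17 ± 0.17 (0.000179) and H2BC12 at 1.13 ± 0.11 (8.44e-06) completed the 7. Of these, H2AC11 passed the filter only through the shEZH2 libraries, where it is high. Without single libraries, H2BC12 lost the call when shEZH2 replicate 2 was left out, H4C8 when shE2F1 replicate 2 was, and H2AC11 and H3C10 when any of shEZH2 replicate 2, shE2F1 replicate 1 and shE2F1 replicate 2 was. H1-2 at 0.99 (adjusted p = 1.77e-05), H2AC6 at 0.95 (1.43e-05) and H2BC11 at 0.91 (0.000565) were just under 2-fold. With the GC and length correction these 3 and H2BC17, H3C2, H3C3 and H4C3 passed as well, all higher with shEZH2, for a count of 14. The share of all genes called with that correction is not given here. H2BC5 went the other way at -0.74 (adjusted p = 0.0011), under 2-fold. The libraries did not overlap for 23 of 28 members and for 82.6% of all genes.

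GSK126 against DMSO gave no such shift. In the main fit, which has no replicate block, no member of 24 and no gene of 14632 was called (0.00% in either direction, 0.00% higher and 0.00% lower). DESeq2 called none of the members either. At an unadjusted edgeR p under 0.05 there were 4 members, H4C15, H4C14, H2BC4 and H2AC6. The share of all genes at that threshold is not given here, so this count has no background beside it. The members' median log2 difference was -0.17, beside -0.00 for all genes, and the libraries did not overlap for 10 of 24 members against 28.4% of all genes. H2BC4 was at 12.3 and 14.1 TPM in DMSO and at 4.45 and 6.56 in GSK126, without overlap (-1.21 ± 0.29, edgeR adjusted p = 0.929). H2BC21 stayed low at 2.18 and 2.22 TPM in DMSO and 1.47 and 1.55 in GSK126, and H2BC11 was at 10.9 and 10.4 against 5.19 and 8.97. H2BC12 was at 412 and 449 TPM in DMSO and at 354 and 401 in GSK126, and H1-2 at 229 and 214 against 191 and 213. For both genes the groups lie next to each other in TPM and overlap in CPM. With the replicate number as a block, which leaves 1 residual degree of freedom, 3 members were called, H2BC4 at -1.22 (adjusted p = 0.00197), H4C14 at -2.39 (2.69e-07) and H4C15 at 1.90 (5.64e-05). The fitted spread between libraries (biological coefficient of variation) was 0.0242 in that fit and 0.126 without the block. The share of all genes called with the block is not given here, so these 3 calls have no background beside them. H4C14 and H4C15 are the near-identical pair with opposite signs, and their sum was 4.16 and 6.36 CPM in DMSO and 3.76 and 4.26 in GSK126, groups that overlap.

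The change with shEZH2 was compared with that of GSK126 in 1 fit over both experiments, as the difference of the 2 log2 changes. It was called for 10 of 29 members, all higher with the hairpin. Over all 15773 genes 13.8% were called, 5.13% higher and 8.67% lower, and the members' median difference was 1.14 beside -0.03. The largest differences were those of H2BC4 at 4.30 ± 0.32 (edgeR adjusted p = 8.23e-06), H2BC21 at 3.74 ± 0.30 (1.04e-05), H2BC11 at 2.94 ± 0.34 (8.92e-05) and H4C8 at 2.58 ± 0.30 (9.64e-05). H2BC15 differed by 2.51 ± 0.42 (adjusted p = 0.000808). The abundant genes H2AC6 at 1.28 ± 0.16 (adjusted p = 0.000144), H2BC12 at 1.15 ± 0.23 (0.00209) and H1-2 at 1.14 ± 0.19 (0.000698) were called as well, H1-2 not without GSK126 replicate 1 and H2BC12 not without shEZH2 replicate 2, Control replicate 2, GSK126 replicate 1 or DMSO replicate 2. H2BC17 at 2.11 ± 0.55 (adjusted p = 0.0099) and H2AC18 at 1.80 ± 0.45 (0.00873) lost the call without most single libraries, while the summed H2AC18 and H2AC19 pair differed by 2.44 (1.73e-05). Infection, selection and vehicle differ between the experiments along with the agent, and these cannot be told apart.

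**Figure D4:**
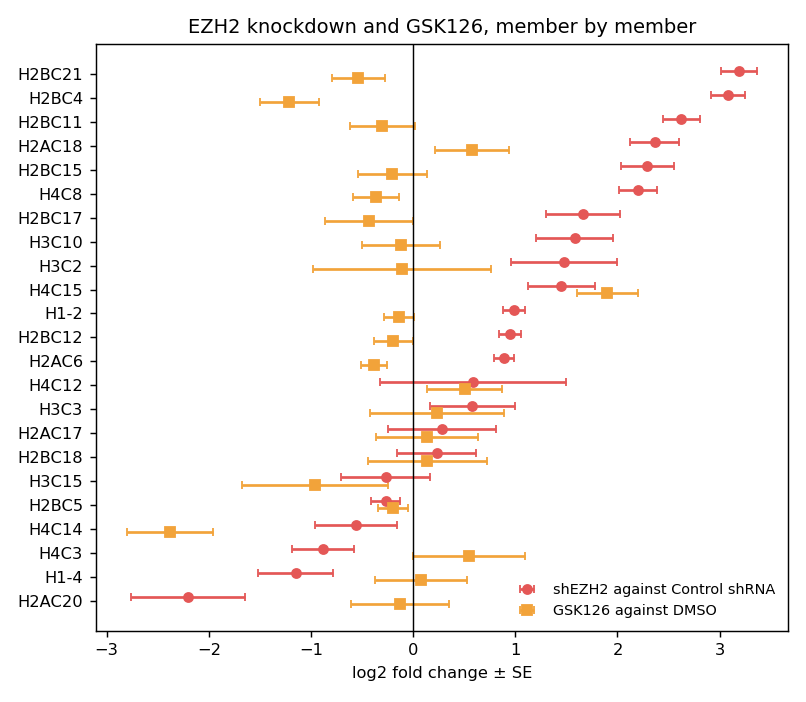
Log2 fold change with its SE (x axis) of the 23 histone genes that passed the filter in both experiments (y axis), for shEZH2 against Control shRNA (circles) and GSK126 against DMSO (squares). H2BC4 lies at 3.08 with the hairpin and at -1.21 with the drug, and H4C15 and H4C14 lie at 1.90 and -2.38 with the drug.

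The members differ in whether the annotation gives them a transcript that runs past the stem-loop. Such an end, more than 30 bases behind it, was annotated for 16 members, and 15 of them carry a polyadenylation signal in the last 50 bases. Of these 16, 13 passed the filter, against 16 of the 50 members whose transcripts end at the stem-loop, and the median of their mean levels was 7.05 TPM against 0.636. With shEZH2, 7 of the 13 with a longer end were called higher (median 1.45), against 3 higher and 1 lower of 15 without one (median 0.95). H4C15 is among the 7, and its sum with the near-identical H4C14 was not called. With shE2F1, the called counts were 4 higher of 13 (median 0.51) against 2 lower of 15 (median 0.00), and between the knockdowns 4 of 13 and 3 of 15. Among all genes, 7.52% were called higher and 10.7% lower with shEZH2, and 5.60% and 5.96% with shE2F1. Between the knockdowns these shares were 10.4% and 12.9%. The difference between members with and without a longer end was not tested. Of the members, 8 have annotated longer transcripts that splice the stem-loop out. H2BC4, H2BC11 and H2BC15 rose in both knockdowns, H2BC5, H2BC18, H2AC6 and H4C16 were called in neither, and H2BC26 had too few reads to be tested.

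The files also give a mean transcript length per gene, weighted by the estimated share of each transcript, which moves when the mixture of short and long forms moves. For H4C8 it was 877 and 1352 bases in Control, 1382 and 1439 in shEZH2, and 1409 and 1427 in shE2F1. For H2BC15 it was 924 and 1260 bases in Control and 1482 and 1598 in shEZH2, and for H3C10 779 and 839 against 1179 and 1250. The shEZH2 values of all 3 lay above both Control values. H4C15 had 850 and 1000 bases in Control and 1277 and 1463 in shEZH2, and H2AC6 933 and 1057 against 1190 and 1123. H2BC11 went the other way, with 547 and 533 bases in Control and 522 and 500 in shEZH2. H4C15 shares its reads with the near-identical H4C14, so its length depends on how they were divided. H4C14 had 689 and 917 bases in Control and 621 and 771 in shEZH2, groups that overlap. Of the 12 members with more than 1 transcript that were tested in the knockdown libraries, 8 had both shEZH2 lengths above both Control lengths. H4C15 is among these 8, and 1 member had both below. Over 13183 genes tested whose length differed between libraries, the shares were 22.9% above and 21.5% below. With shE2F1 the members' counts were 6 above and 0 below, beside 15.7% and 25.8% of all genes. These lengths are estimates from short reads over few transcripts, the H4C8 length ran from 872 to 1819 bases over all 10 libraries, and they are a description with no test.

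**Figure D5:**
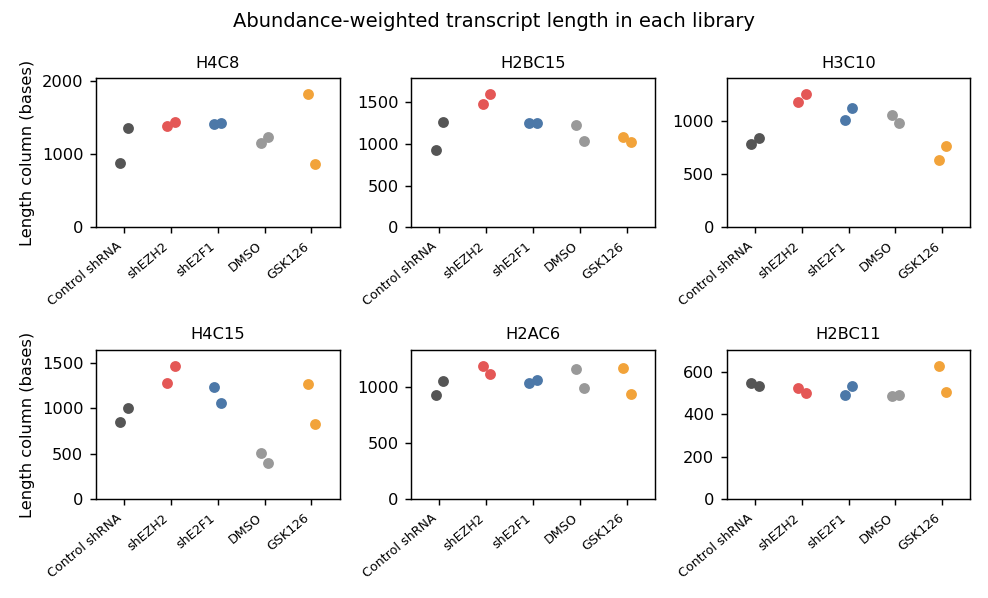
Mean transcript length in bases (y axis, from 0) of 6 histone genes with more than 1 annotated transcript, with a point for each library by group (x axis). The shEZH2 points of H3C10 at 1179 and 1250 bases lie above its Control points at 779 and 839, those of H2BC11 lie below its Control points, and the GSK126 points of H4C8 lie far apart.

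The machinery of histone mRNA processing was followed as a list. Of 28 genes for 3′ processing and decay, 0 rose and 2 fell with shEZH2, beside 7.52% and 10.7% of all genes. In a list of 28, counts this small do not set it apart from that background. Those that fell were CASP8AP2 at -1.56 on the log2 scale and NELFE, a subunit of negative elongation factor, at -1.39. SLBP differed by -0.91 ± 0.10 (edgeR adjusted p = 3.82e-05) and LSM10 by -0.98, both short of 2-fold, LSM11 by 0.29 and ZNF473 by 0.62. With shE2F1 none of the 28 was called, beside 11.6% of all genes. SLBP was at 0.22, LSM10 at -0.25, LSM11 at 0.32, ZNF473 at 0.01 and CASP8AP2 at 0.15. Between the knockdowns SLBP was lower with shEZH2 by -1.13, CASP8AP2 by -1.71 and NELFE by -1.37, and NELFCD was higher by 1.22, all called. These were 3 lower and 1 higher of 28, beside 12.9% and 10.4% of all genes. Of 16 genes for histone gene transcription, E2F2 (-2.64), E2F1 (-1.59) and CDK2 (-1.10) fell with shEZH2 and E2F1 with shE2F1, and NPAT was at -0.17 and 0.05. E2F2 (-2.66) and CCNE2 (-1.05) were lower with shEZH2 than with shE2F1. The shares of all genes called lower were 10.7% with shEZH2, 5.96% with shE2F1 and 12.9% between the knockdowns.

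Of the histone genes outside the replication-dependent set, H2AX, whose product marks DNA breaks when phosphorylated, fell with shEZH2 with a log2 change of -1.95, as did H2AJ at -1.59 and the linker histone gene H1-10 at -1.08. With shE2F1, H1-10 (-1.69) fell, and H2AJ was lower with shEZH2 than with shE2F1 (-1.67). Among 24 histone chaperones and import factors, IPO4 (-1.92), TONSL (-1.39), ASF1B (-1.14) and CHAF1A (just past 2-fold) fell with shEZH2 and IPO4 (-1.34) and ASF1A (-1.27) with shE2F1. These were 4 and 2 of 24, and none rose, beside 10.7% and 5.96% of all genes called lower. Between the knockdowns, DAXX was higher with shEZH2 (1.22), and TONSL (-1.17) and CHAF1A (-1.14) were lower. That is 1 higher and 2 lower of 24, beside 10.4% and 12.9% of all genes.

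Genes tied to DNA replication, most of which work in the same phase of the cycle, were followed as a list of 24. It also holds the nucleoside transporter gene SLC29A1 and the cyclin gene CCNE2. With shEZH2, 11 of 24 fell and none rose, beside 10.7% of all genes called lower, among them RRM2 (-1.69), MCM6 (-1.68), POLD1 (-1.54), SLC29A1 (-1.44) and TYMS (-1.41), with a median of -0.88. With shE2F1, RRM2 (-2.42) and GINS1 (-1.12) fell, 2 of 24 beside 5.96% of all genes called lower, and the median was -0.19. Between the knockdowns, 6 of the 24 were lower with shEZH2, beside 12.9% of all genes. Other RNAs without a tail were followed as a measure of untailed carry-over. Their summed level was 1057 and 904 TPM in Control, 1253 and 1222 in shEZH2, 1070 and 881 in shE2F1, 700 and 626 in DMSO, and 634 and 780 in GSK126. Of the 5 of 23 that could be tested, SNORD3A rose with shEZH2 (1.34), and RPPH1 (-2.23) and SNORD3A (-1.34) fell with shE2F1. These were 1 higher and 0 lower of 5 with shEZH2, beside 7.52% and 10.7% of all genes. With shE2F1 they were 0 higher and 2 lower of 5, beside 5.60% and 5.96%. Set directly against shE2F1, shEZH2 gave 2 of 5 higher and 0 lower, beside 10.4% and 12.9%. The part of untailed carry-over and of the cell cycle in the histone changes was not tested.

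The chromosome 6 cluster also holds genes that encode no histone. Of 13 tested, ZNF184 (1.36) rose and BTN3A3 (-1.36) and HFE (-1.26) fell with shEZH2, and PRSS16 (2.09) rose and BTN3A2 (-1.05) fell with shE2F1, with medians of -0.40 and -0.33. Among all genes, 7.52% were called higher and 10.7% lower with shEZH2, and 5.60% and 5.96% with shE2F1. The long transcripts of H2BC4 overlap HFE and the histone gene H4C3 on the opposite strand, and whether reads were counted by strand is not given in the sources used here, so reads of H2BC4 and these genes may be mixed. None of the genes in these lists was called with GSK126.

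The other 40 members passed no filter. Of these, 21 had no read in any library, namely H1-1, H1-3, H1-5, H2AC1, H2AC7, H2AC16, H2AC25, H2BC1, H2BC7, H2BC8, H2BC9, H2BC10, H3C4, H3C7, H3C8, H3C11, H3C14, H4C4, H4C6, H4C7 and H4C13. A count of 0 allows up to 3 counts per library, so their RNA was not detectable at this depth in selected RNA. This limit does not hold for H3C14, H3C4 and H2AC7, which share 99.2, 96.5 and 83.9% of their stretches of 50 bases with another annotated gene to which reads could be assigned, H3C14 with H3C15, and the pair summed to 2 to 23 counts in a library. The other 19 had at most 17 expected counts in a library. They were H1-6, H2AC4, H2AC8, H2AC12, H2AC14, H2AC15, H2AC21, H2BC3, H2BC13, H2BC14, H2BC26, H3C1, H3C6, H3C12, H3C13, H4C1, H4C2, H4C5 and H4C9, with H2BC3 at the top of that range. Of the 13 H3 genes 4 passed, and of the 15 H4 genes 7, so the members followed in this RNA are a minority of both classes.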

How the data were processed

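RNA was isolated with Trizol, poly(A)-selected and made into directional libraries. The authors aligned reads with STAR 2.7.2b and quantified genes with RSEM 1.3.1 (versions from the submitters' processing notes) against hg38 and Ensembl 108, and deposited expected counts per gene, TPM, and other columns holding transcript length, effective length and the posterior SD of the counts from Gibbs sampling. The strand setting of counting is not given in the sources used here. The 18 sample records contain 8 repeats, leaving 10 distinct libraries. Symbols came from GENCODE 44, which held 62625 of the 62703 gene identifiers (99.9%).

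Expected counts were rounded, filtered with filterByExpr and fitted with edgeR 4.0.16 (limma 3.58.1, R 4.3.3) by quasi-likelihood with TMM scaling. The 6 knockdown libraries, the 4 drug libraries and, for the difference of effects, all 10 were fitted separately. P-values were adjusted by Benjamini-Hochberg over all genes tested, and calls needed both an adjusted p under 0.01 and more than a 2-fold change. Without independent cultures named in the labels, p-values measure the spread between these libraries only. Levels are compared between genes in TPM only. Alternatives were DESeq2 1.42.0, its size factors, other filters (none, or a mean of 50 counts), GC and length splines (5 df), an effective length offset, other sample sets, a replicate block, a weaker threshold (0.05), members with at least 50% unique stretches of 50 bases, and leaving out libraries. Summing near-identical pairs was added after seeing the data. The fit was tested on simulated data. With 2 libraries a group, replicate numbers could not be shown to pair libraries.

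Every member passing a filter was named, and members called in any comparison, with the most abundant of each class, were given by library. The members and lists were chosen with earlier results of these data known. The counts and median of the list of other histone genes are not reported here. Sequences were read from GRCh38, with promoter windows from RefSeq GRCh38.p14.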

Additional observations from a re-analysis of the deposited data

Results flagged for a closer look

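For 10 histone genes the log2 change with shEZH2 against Control shRNA differed from that with GSK126 against DMSO in the fit over both experiments. The difference, shEZH2 minus GSK126, was 4.30 for H2BC4, 3.74 for H2BC21, 2.94 for H2BC11, 2.58 for H4C8, 2.51 for H2BC15, 2.11 for H2BC17 and 1.80 for H2AC18. It was 1.28 for H2AC6, 1.16 for H2BC12 (1.155 before rounding) and 1.14 for H1-2. H2BC4, H2BC21, H2BC11, H4C8 and H2BC15 kept the call under every alternative and without any single library, whereas H2BC17 lost it without any 1 of the 8 libraries and H2AC18 without 7 of them. Infection and selection were part of the knockdown experiment only, and their share in these differences cannot be told apart from that of the agent.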

How the results depend on the processing

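With shEZH2, 6 of the 11 called members (H2AC18, H2BC4, H2BC11, H2BC15, H2BC21 and H4C8) were called under every alternative that gave them a value and without any single library, as were 3 of 6 with shE2F1 (H2BC4, H2BC11 and H2BC15), 3 of 7 between the knockdowns (H2AC18, H2BC4 and H2BC21) and 5 of 10 for the difference from GSK126. H2AC18 has no unique stretches, so it was left out of the alternative on unique members and stood as a sum with H2AC19 where pairs were summed. Leaving out a library leaves 1 in its group, which is then assumed to vary like the others. No called member changed sign, and where other alternatives moved a value the cause was not tested. For shEZH2, the count of 11 became 7 with a mean of at least 50 counts, 7 with the effective length offset and 19 at an adjusted p under 0.05 without a fold, while the median of 1.17 became 0.91 without a filter, 1.83 at a mean of 50 counts, 0.79 with effective lengths and 1.42 over members with mostly unique sequence. For shE2F1, the count of 6 became 10 at the weaker threshold, and the median of 0.30 became 0.54 at a mean of 50 counts, 0.11 over mostly unique members and 0.18 with pairs summed. Between the knockdowns, the count of 7 became 14 with GC and length correction, 12 with that and the replicate block, and 17 at the weaker threshold, and the median of 0.84 became 0.56 with DESeq2, 0.47 unfiltered, 1.11 with the correction and 1.09 with the block added. For the difference from GSK126 the median of 1.14 became 1.82 at a mean of 50 counts and 0.72 with effective lengths. The shares of all genes called under these alternatives are not given here, so their counts of members have no background beside them.

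The replicate block left 11 members called for shEZH2, 6 for shE2F1 and 7 between the knockdowns, and gave 12 for the difference. For GSK126 against DMSO it raised the count from 0 to 3, and to 4 with GC and length correction, with 1 residual degree of freedom. The share of all genes called with the block is again not given. Libraries of the same number deviated together in the drug experiment (r = 0.645 over 11919 genes) and less in the knockdowns (r = 0.0455 to 0.215). The median gap between length and effective length was 205 and 204 bases in DMSO and GSK126 replicate 1, and 175 and 171 in replicate 2. With 2 numbers a group this does not establish pairs, and the count of 0 for GSK126 is that of the main fit without the block. Without single libraries the counts ran from 8 to 10 for shEZH2, 4 to 7 for shE2F1, 4 to 9 between the knockdowns, 0 to 3 for GSK126 and 6 to 8 for the difference. The medians then ran from 0.80 to 1.54, 0.0295 to 0.35, 0.75 to 1.00, -0.45 to 0.0039 and 0.78 to 1.41. The shE2F1 median of 0.30 was 0.0295 without shE2F1 replicate 1. In TMM-scaled CPM, the class sum ratios for shEZH2 were 1.96 for H1 (2.24 in TPM), 2.83 for H2A (3.70) and 2.15 for H4 (1.21), and for shE2F1 1.32 for H4 (0.817).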
